A study of Sus scrofa with 9 samples.

Results

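Krueppel-like factors are transcription factors with zinc fingers at the C-terminal end that bind GC-rich and CACCC-type DNA. The genes described here are the Krueppel-like factors other than KLF1, found in the authors' gene table as the locus described as Krueppel-like factor 2, 3, 4, 6, 7, 9, 10, 11, 12 or 13. Where several loci carried the same number, the one with the highest mean FPKM, the authors' fragment density per length of gene model and library size, was taken. This gave 9 genes of 28095 loci, namely KLF2, KLF3, KLF4, KLF6, KLF7, KLF9, KLF10, KLF12 and KLF13, while no locus matched KLF11, which was not analysed here. All 9 genes had a mean of at least 1 FPKM, as did 19264 of all loci, and only loci above that minimum were tested.

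RNA came from spleens of pigs of the Ningxiang breed, a Chinese indigenous breed, at postnatal days 30, 90 and 210, and the question was how expression differs between these ages. Each age had 3 libraries, and all groups shared breed and tissue, with no treatment or genetic change named in the labels. Sex was not labelled, and nothing beyond numbered sample names says that libraries of an age came from separate animals, so the p-values speak of the spread between the libraries and not of animals. Counts per library ran from 48.9 to 62.1 M.

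The members differ mainly in the part of the protein outside the zinc fingers, which sets the partners they recruit. KLF2, KLF4, KLF6 and KLF7 carry activating regions that work with acetyltransferases such as EP300. KLF3 and KLF12 bind the CtBP corepressors, and KLF9, KLF10 and KLF13 bind the SIN3A corepressor. In mouse, KLF2 keeps T and B cells quiescent and directs their traffic through lymphoid organs, and with KLF4 it answers blood flow in endothelium. KLF4 also acts in monocytes, KLF9 is induced by glucocorticoids, and KLF10 is induced by TGF-beta.

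KLF4 was the one member to pass the test for a difference between any of the ages, which 7.64% of all loci passed, and it lost that call in 6 of 9 fits with a library left out. Its mean was highest at day 210 and lowest at day 90, with a log2 change of 1.3 ± 0.25 between these ages that did not pass (adjusted p = 0.0645, n = 3 libraries each). KLF9 also had its lowest mean at day 90, and KLF10 had its highest mean at day 30, but neither passed that test. The libraries of KLF2, the member with the highest mean FPKM, and of KLF7 and KLF12 overlapped in each comparison of ages.

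Between members, levels are compared in FPKM, which is per length of the gene model. KLF2 had the highest mean over the 9 libraries, 28.6 FPKM with a range of 23.5 to 38.2, and ranked 578 among the 28095 loci. It was the highest member in each library and made up 26.9 to 38.7% of the members' summed FPKM. KLF9 followed with a mean of 12.4 FPKM (6.56 to 19.1), then KLF3 with 9.89 (7.68 to 13.5) and KLF10 with 8.31 (5.76 to 12). KLF6 had a mean of 8.24 FPKM (6.31 to 10.6) and KLF13 of 7.53 (5.51 to 9.45). The lowest were KLF7 with 3.40 FPKM (2.78 to 4.06), KLF4 with 3.30 (1.40 to 6.40) and KLF12 with 2.67 (1.48 to 3.51).

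Of the 8 pairs of neighbours in this order, ranges over the 9 libraries were apart for KLF2 over KLF9 (2.31-fold in mean) and for KLF13 over KLF7 (2.21-fold). The ranges of the other 6 pairs overlapped. Read within each library, 24 of all 36 pairs of members kept this order in all 9 libraries, among them KLF3 over KLF6, and KLF3 was above KLF10 in 8 of 9. The other neighbours whose ranges overlapped were in this order in 3 to 7 of 9 libraries. KLF4 had the widest range of the members over the 9 libraries, 4.58-fold between the lowest and the highest library, and KLF7 the narrowest, 1.46-fold.

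**Figure D1:**
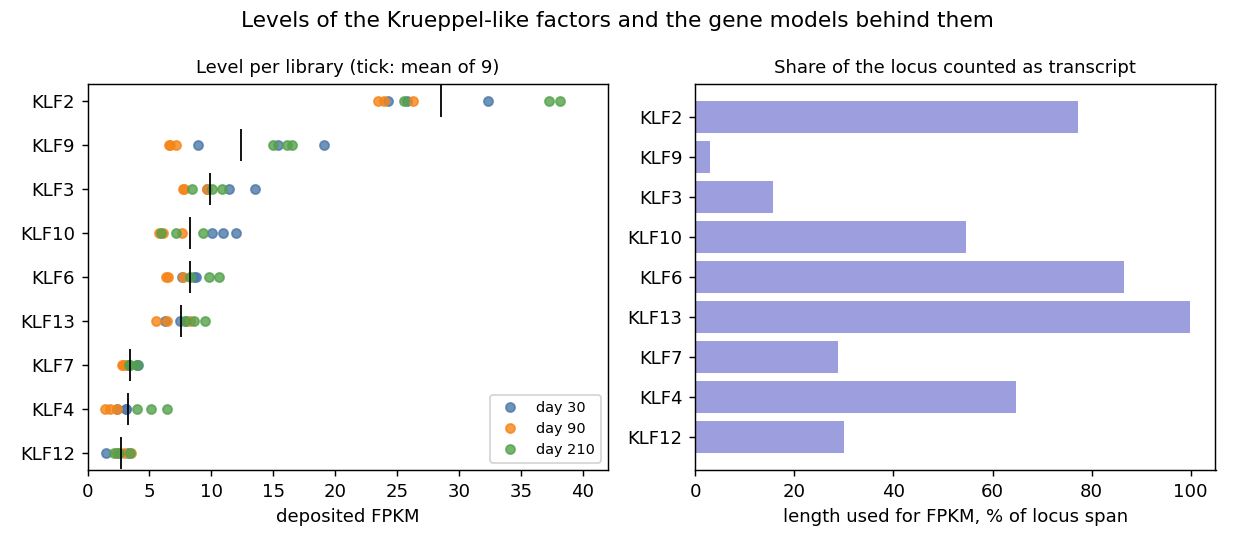
FPKM of each of the 9 members in each of the 9 libraries, with members ordered by mean and points marked by age. A further panel gives the length used for FPKM as a percent of the span of each locus. KLF2 lies above all other members, and the points of KLF9 to KLF13 overlap between 5.51 and 19.1 FPKM.

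The gene models behind these values differ in kind. From counts and FPKM, the length of the KLF9 model was 735 bases, 3.05% of its span, which is 1 reference transcript without assembled ones. Lengths of such models were multiples of 3 in 99.5% of 211 loci, so the KLF9 value rests on coding length, and a fragment in its untranslated ends was not counted there. The KLF13 model covered 99.9% of its span of 46618 bases, and the KLF6 model 86.5% of 10001 bases. The KLF7 model held 27942 bases, 28.7% of its span, and the KLF12 model 146722 bases over 15 transcripts, 14 of them assembled by the authors. Counts of KLF6, KLF7, KLF12 and KLF13 can thus hold intronic reads, and their FPKM are spread over that length. The order of members in FPKM therefore rests on unlike models and need not be their order in mRNA. The models of KLF2, KLF3, KLF4 and KLF10 held 1693, 5732, 3108 and 3269 bases.

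Ages are compared in CPM, counts scaled to library size with TMM factors, and tested by edgeR's quasi-likelihood test with Benjamini-Hochberg adjustment over 19264 loci. The deposited FPKM are not used for this, as on their scale the median of all loci moved by −0.15 log2 units at day 90 against day 30 and by 0.11 at day 210 against day 90. Log2 changes are given ± their standard error, and means ± the standard deviation over the 3 libraries of an age. In bulk RNA, fewer cells of a type and less RNA per cell cannot be told apart.

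Among the members with activating regions, KLF4 (MSTRG.46, chromosome 1, 5022508 to 5027311, plus strand) holds a place in macrophage and endothelial gene control. It had 12.2, 12.8 and 8.83 CPM at day 30, 6.72, 6.78 and 11.8 CPM at day 90, and 24.3, 20.9 and 17.3 CPM at day 210. All day 210 libraries lay above all earlier ones, while the libraries of days 90 and 30 overlapped because day 90 replicate 3 was close to the day 30 values. Means were 11.3 ± 2.15, 8.44 ± 2.93 and 20.8 ± 3.51 CPM at days 30, 90 and 210 (SD, n = 3 each).

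For a difference between any of the ages KLF4 had an adjusted p of 0.0298. It was 1 of 9 members past this test, which 7.64% of all loci passed. The call held when the third replicate of day 30, 90 or 210 was left out, and was lost without each of the other 6 libraries, at adjusted p from 0.0611 to 0.0727. By pairs of ages, KLF4 had a log2 change of 1.3 ± 0.25 at day 210 against day 90 (2.47-fold, adjusted p = 0.0645). At day 210 against day 30 its log2 change was 0.89 ± 0.25 (1.85-fold, adjusted p = 0.0717), and at day 90 against day 30 it was −0.42 ± 0.25 (adjusted p = 0.359). None of these passed, though DESeq2 gave adjusted p = 7.12e-05 at day 210 against day 90 and 0.0086 at day 210 against day 30. The share of KLF4 in the summed FPKM of the members was 5.99, 5.99 and 4.18% at day 210, against 2.39, 2.20 and 3.64% at day 90 and 3.20, 3.42 and 3.01% at day 30. This share does not depend on how libraries are scaled, though it depends on the other members, and each day 210 library had more than any other library.

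KLF2 (MSTRG.2774, chromosome 2, 93708803 to 93710994, plus strand) had 55.7, 72.0 and 48.8 CPM at day 30, 54, 61.9 and 65.7 CPM at day 90, and 79.1, 56.4 and 87.3 CPM at day 210. The libraries of any pair of ages overlapped, and day 210 replicate 2 lay within the range of day 30. Its log2 change was 0.30 ± 0.19 at day 210 against day 90 (adjusted p = 0.556), 0.34 ± 0.19 at day 210 against day 30 (adjusted p = 0.325) and 0.042 ± 0.19 at day 90 against day 30 (adjusted p = 0.923). The last of these takes the other sign on the FPKM scale and without day 30 replicate 3 or day 90 replicate 3, so that no direction is given.

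KLF6 (MSTRG.13567, chromosome 10, 36992875 to 37002875, minus strand), a factor induced by tissue injury and cytokines, had 97.1, 98.1 and 78.3 CPM at day 30, 80.6, 87.0 and 88.5 CPM at day 90, and 112, 111 and 99.2 CPM at day 210. All day 210 libraries were above the earlier ones, narrowly so for day 210 replicate 3 against the highest day 30 library. Means were 91.2 ± 11.2, 85.4 ± 4.2 and 107 ± 7.16 CPM at days 30, 90 and 210. The log2 change was 0.33 ± 0.12 at day 210 against day 90 (adjusted p = 0.242) and 0.24 ± 0.12 at day 210 against day 30 (adjusted p = 0.254).

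KLF7 (MSTRG.19178, chromosome 15, 111968415 to 112065754, minus strand), known best from neurons and adipocyte precursors, had 102 to 145 CPM over the 9 libraries, and its libraries overlapped in every pair of ages. Its means were 132 ± 15.2, 118 ± 14.2 and 130 ± 8.17 CPM at days 30, 90 and 210, and its adjusted p for any difference was 0.608, the highest of the members.

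**Figure D2:**
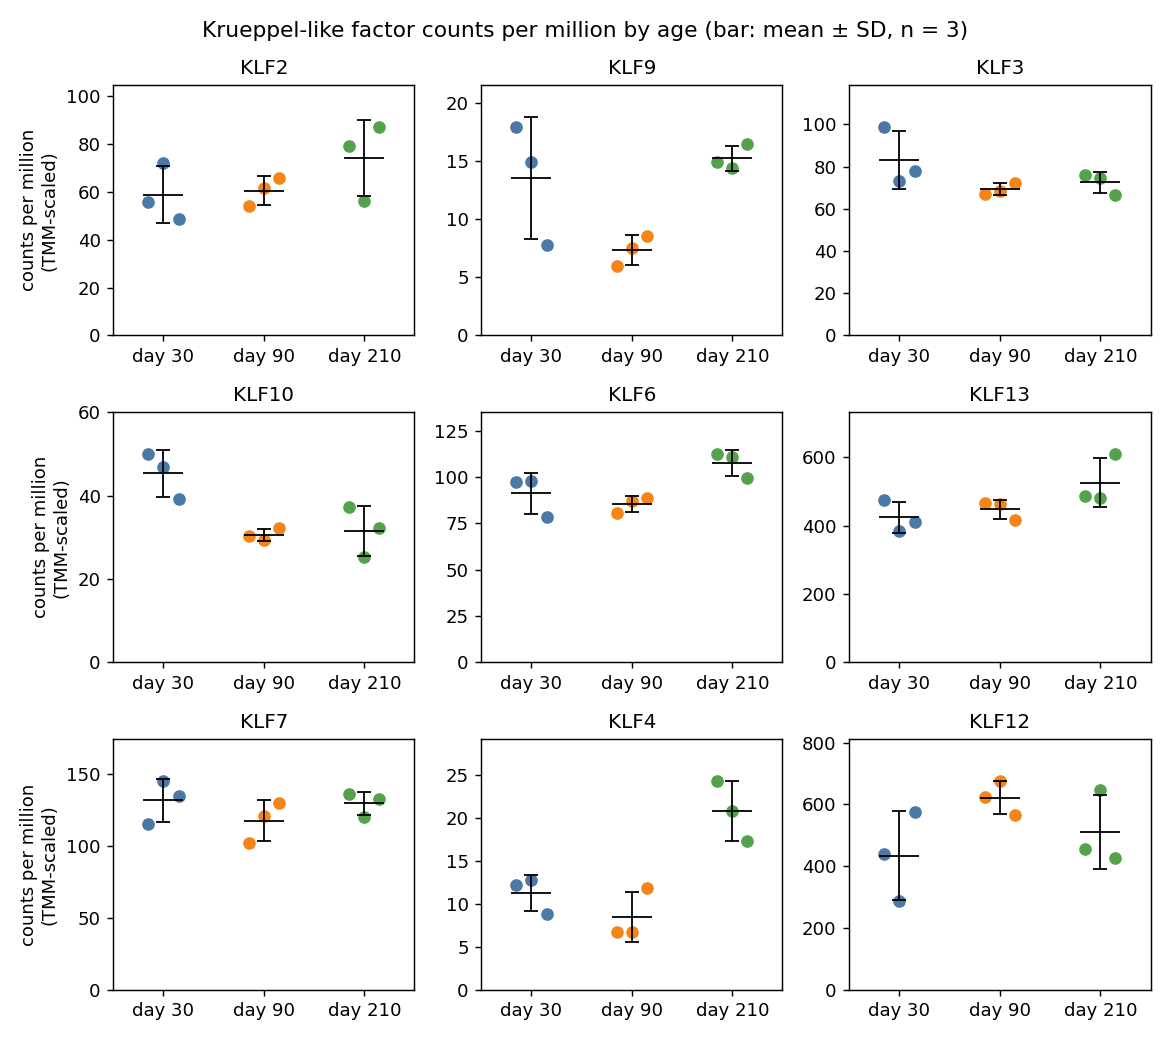
TMM-scaled CPM of each of the 9 members in each library at postnatal days 30, 90 and 210, with the mean and standard deviation of 3 libraries per age, each panel with its own axis from 0. In the KLF4 panel the day 210 libraries, 17.3 to 24.3 CPM, lie above all others, and in the KLF10 panel the day 30 libraries, 39.2 to 50.1 CPM, lie above all others.

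Of the members that bind SIN3A, KLF9 (MSTRG.217, chromosome 1, 30266928 to 30291058, plus strand) had 17.9, 14.9 and 7.77 CPM at day 30, 5.95, 7.50 and 8.5 CPM at day 90, and 14.9, 14.3 and 16.4 CPM at day 210. All day 210 libraries lay above all day 90 libraries. At day 30 the libraries were split, with replicate 3 inside the day 90 range and the others near the day 210 values, so that the coefficient of variation at day 30 was 38.5%. The log2 change was 1.06 ± 0.27 at day 210 against day 90 (2.08-fold, adjusted p = 0.134), −0.89 ± 0.27 at day 90 against day 30 (adjusted p = 0.0899) and 0.17 ± 0.27 at day 210 against day 30 (adjusted p = 0.748).

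The first 2 of these KLF9 changes passed by DESeq2, with adjusted p = 0.007 at day 210 against day 90 and 0.017 at day 90 against day 30. Both passed by edgeR as well without day 30 replicate 3, with adjusted p = 0.0442 at day 210 against day 90 and, for a log2 change of −1.16, 0.0141 at day 90 against day 30. One locus without description lay across KLF9 on the other strand, with 6860 counts in all against 6029 for KLF9, and the labels do not say whether the counting used strand. That locus had 12.2, 16.5 and 11.2 CPM at day 30, 8.46, 12.7 and 6.76 CPM at day 90, and 17.5, 19.1 and 18.8 CPM at day 210. Its log2 change was 0.99 ± 0.23 at day 210 against day 90 (adjusted p = 0.106) and −0.51 ± 0.23 at day 90 against day 30 (adjusted p = 0.226). Whether reads of one were counted in the other was not tested, and the KLF9 value is given as uncertain.

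KLF10 (MSTRG.5546, chromosome 4, 26641733 to 26647714, minus strand), an early response gene to TGF-beta, had 50.1, 47.0 and 39.2 CPM at day 30, 30.2, 29.3 and 32.2 CPM at day 90, and 37.2, 25.4 and 32.1 CPM at day 210. Every library of days 90 and 210 lay below every day 30 library. Means were 45.4 ± 5.62, 30.6 ± 1.5 and 31.6 ± 5.95 CPM at days 30, 90 and 210. The log2 change was −0.57 ± 0.16 at day 90 against day 30 (adjusted p = 0.0638) and −0.52 ± 0.16 at day 210 against day 30 (adjusted p = 0.0829), and at day 210 against day 90 it was 0.047 ± 0.16 (adjusted p = 0.934). DESeq2 gave adjusted p = 0.0146 at day 90 against day 30 and 0.0324 at day 210 against day 30.

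KLF13 (MSTRG.649, chromosome 1, 97598087 to 97644704, minus strand), which in T cells acts late on the chemokine gene CCL5, had 474, 385 and 411 CPM at day 30, 466, 462 and 416 CPM at day 90, and 488, 480 and 610 CPM at day 210. The day 210 libraries lay above all others, with 480 against at most 474 CPM in the libraries closest to each other. Its log2 change was 0.31 ± 0.13 at day 210 against day 30 (adjusted p = 0.202), 0.23 ± 0.13 at day 210 against day 90 (adjusted p = 0.495) and 0.081 ± 0.13 at day 90 against day 30 (adjusted p = 0.769). On the FPKM scale the last of these is negative.

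Of the members that bind CtBP, KLF3 (MSTRG.11596, chromosome 8, 29903486 to 29940197, minus strand), a repressor that in mouse shapes B cell subsets, had 99.0, 73.0 and 77.8 CPM at day 30, 66.9, 68.5 and 72.4 CPM at day 90, and 76.1, 74.8 and 66.7 CPM at day 210. The day 90 libraries were below those of day 30, by less than 1 CPM between the nearest. The log2 change was −0.27 ± 0.13 at day 90 against day 30 (adjusted p = 0.26), −0.20 ± 0.13 at day 210 against day 30 (adjusted p = 0.388) and 0.066 ± 0.13 at day 210 against day 90 (adjusted p = 0.87).

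KLF12 (MSTRG.14359, chromosome 11, 50364634 to 50854512, minus strand), first described as a repressor of the gene of AP-2 alpha, had 438, 287 and 576 CPM at day 30, 625, 676 and 566 CPM at day 90, and 455, 648 and 428 CPM at day 210. The ages overlapped in each pair, and the coefficient of variation was 33.3% at day 30 and 23.5% at day 210. The log2 change was 0.52 ± 0.25 at day 90 against day 30 (adjusted p = 0.252). Across its span lay 9 other loci, 4 on the same strand and 5 on the other, with 292327 counts against 261994 for KLF12, so its counts are uncertain.

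Taken as a list, 0 of 9 members passed edgeR's test at day 90 against day 30, where 6.08% of all loci did, 2.06% higher and 4.02% lower. At an unadjusted p under 0.05 there were 2, KLF10 and KLF9, where 23.1% of all loci had such a p. DESeq2 called the same 2 genes lower, where it called 12.6% of all loci. The libraries of both ages did not overlap for KLF3 and KLF10, both lower, or 2 of 9, where 33.6% of all loci did not overlap, 16.9% higher and 16.7% lower. The median log2 change of the members was −0.17, and that of all loci 0.003.

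Between days 210 and 90, 0 of 9 members passed edgeR's test, where 0.535% of all loci did, 0.348% higher and 0.187% lower. KLF4, KLF9 and KLF6 had an unadjusted p under 0.05, or 3 of 9 where 14.1% of all loci did. DESeq2 called KLF4 and KLF9 higher, where it called 4.17% of all loci. Libraries did not overlap for KLF4, KLF6, KLF9 and KLF13, all higher at day 210, or 4 of 9, where 19.4% of all loci did not overlap, 9.91% higher and 9.53% lower. The log2 change was positive for 8 of 9 members, with KLF12 as the exception, where 49.96% of all loci had a positive change. The median of the members was 0.23, and that of all loci −6.6e-05.

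Between days 210 and 30, 0 of 9 members passed edgeR's test, where 6.24% of all loci did, 2.55% higher and 3.7% lower. KLF4, KLF10 and KLF13 had an unadjusted p under 0.05, or 3 of 9 where 23.7% of all loci did. DESeq2 called KLF4 higher and KLF10 lower, where it called 12% of all loci. Libraries did not overlap for KLF4, KLF6 and KLF13, higher at day 210, and for KLF10, lower, or 4 of 9, where 25.6% of all loci did not overlap, 12.4% higher and 13.2% lower. The median log2 change of the members was 0.23, and that of all loci 0.0048.

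**Figure D3:**
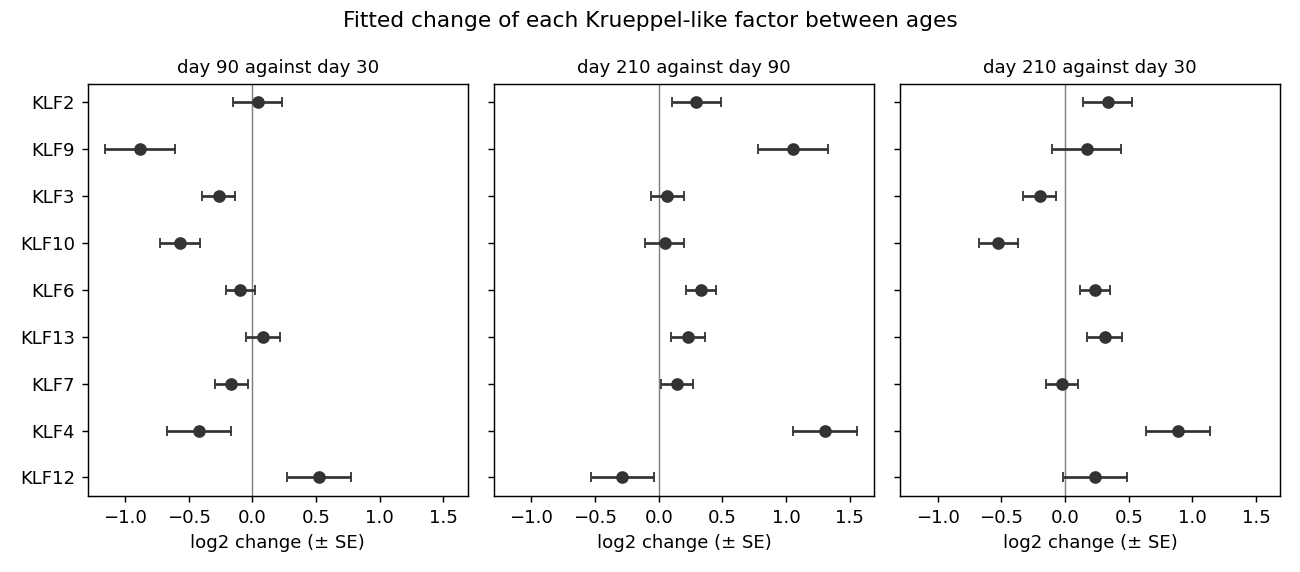
Log2 change with its standard error for each of the 9 members in each pair of ages, from edgeR's quasi-likelihood fit. KLF4 and KLF9 lie furthest above 0 at day 210 against day 90, at 1.3 and 1.06, and KLF9 and KLF10 lie lowest at day 90 against day 30, at −0.89 and −0.57.

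**Figure D4:**
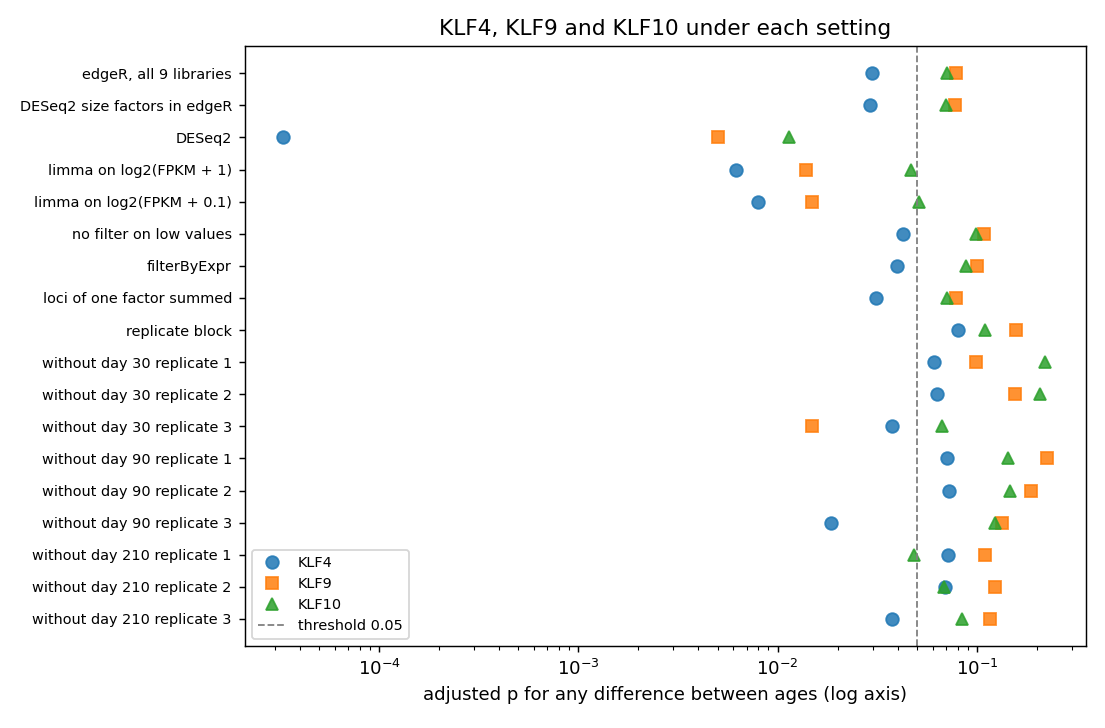
Adjusted p of KLF4, KLF9 and KLF10 for a difference between any of the ages under the test used here and under each other setting, on a log axis with the threshold of 0.05 drawn. KLF4 passed under 10 of 17 other settings, KLF9 under 4 and KLF10 under 3. The other 6 members, which are not drawn, passed under 0.

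Other genes of the family were measured in part. Of 7 further Krueppel-like factors 4 were tested, and KLF1, the erythroid factor, was lower at day 90 against day 30 (adjusted p = 0.0172) and at day 210 against day 30 (adjusted p = 0.0146). KLF1 had 8.23, 2.05 and 3.95 CPM at day 30 and at most 0.191 CPM in any later library. KLF1 thus reached the minimum mean of 1 FPKM through its day 30 libraries, so its calls are not separate from that filter. It kept these calls in 6 and 8 of 9 fits with a library left out, with highest adjusted p of 0.0625 without day 90 replicate 1 and 0.0529 without day 210 replicate 2. KLF15, a metabolic factor that glucocorticoids induce, had a log2 change of 0.89 ± 0.23 at day 210 against day 90 (adjusted p = 0.128). KLF16, which binds SIN3A, had −0.81 ± 0.21 at day 90 against day 30 (adjusted p = 0.0557). KLF8 was tested and did not pass, and KLF5, KLF14 and KLF17 were under 1 FPKM. Of the related SP factors 4 were tested and 0 passed at any pair of ages, with the smallest unadjusted p for SP2, SP1 and SP4.

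Among partners of the members, 0 genes passed. Of 10 corepressor genes tested, CTBP2 had a log2 change of −0.50 ± 0.16 at day 90 against day 30 (adjusted p = 0.099), and RBBP7 had 0.41 ± 0.11 at day 210 against day 90 (adjusted p = 0.146). Neither these 10 nor 4 coactivators and ubiquitin ligases held a gene that passed in any pair of ages, though HDAC2 fell at day 210 against day 30 when day 210 replicate 1 was left out. The summed CPM of the corepressors was 505 to 561 at day 30, 506 to 532 at day 90 and 487 to 527 at day 210. Of 11 listed genes upstream of KLF2 and KLF4 (ERK5 route, FOXO1 and flow sensing), 7 were matched and tested, and 0 passed. ERK5 itself (MAPK7), MEF2A, MEF2C and FOXO3 were not matched, so the route was measured only in part. Without day 210 replicate 3, 2 passed at day 210 against day 30, MAP3K2 higher and PIEZO1 lower. FOXO1, which drives KLF2 in quiescent T cells, had 0.49 ± 0.17 at day 90 against day 30 (adjusted p = 0.122) and −0.44 ± 0.17 at day 210 against day 90 (adjusted p = 0.281). The FOXO1 model of 102219 bases, 99.5% of its span, can hold intronic reads.

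Of 9 tested genes listed as targets of KLF2 in lymphocytes and endothelium, 3 fell at day 90 against day 30. The list gives no direction for the effect of KLF2 on each gene. TEK, the angiopoietin receptor, had 24.1, 29.4 and 31.7 CPM at day 90, against 57.5, 54.7 and 46.7 CPM at day 30 (log2 change −0.90 ± 0.14, adjusted p = 0.0123). Thrombomodulin (THBD, −0.96 ± 0.22, adjusted p = 0.0375) and TIE1 (−0.77 ± 0.18, adjusted p = 0.0387) also fell, but each lost its call in 6 of 9 fits with a library left out, with highest adjusted p of 0.127 without day 90 replicate 1 for THBD and 0.129 without day 30 replicate 2 for TIE1. TEK was lower at day 210 against day 30 too (−1.06 ± 0.14, adjusted p = 0.00679) and kept both calls in all 9 such fits. Between days 210 and 90, 0 of the 9 passed. The lymphocyte exit receptor S1PR1 had 64.8 ± 12.1 CPM at day 210, against 87.4 ± 6.59 CPM at day 90 (adjusted p = 0.318).

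Endothelial markers moved along with these targets, and TEK is itself one of them. The 5 matched endothelial markers of 7 listed summed to 527 to 670 CPM at day 30, 198 to 268 at day 90 and 182 to 232 at day 210, and against day 30 VWF, CLEC14A, FLT1 and TEK were lower at day 90, and these with KDR at day 210. The count of 5 at day 210 was 3 without day 30 replicate 2 or day 210 replicate 2. Their part in the values of KLF2, KLF4 and the targets was not tested. KLF2 and KLF4 had their highest means at day 210, where the endothelial sum had its lowest library.

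Of 15 listed genes of TGF-beta signalling around KLF10, 9 were tested, and the ligand TGFB1 and the receptor TGFBR1 were not matched. Of the 9, 2 fell at day 90 against day 30, the coreceptor TGFBR3 (−0.58 ± 0.10, adjusted p = 0.0169) and the ligand TGFB3 (−1.08 ± 0.23, adjusted p = 0.0314). TGFBR3 had 238, 272 and 245 CPM at day 90, against 374, 400 and 355 CPM at day 30, so its libraries, like those of KLF10, did not overlap. With a library left out these calls held in 5 and 4 of 9 fits, with highest adjusted p of 0.0753 for TGFBR3 without day 90 replicate 1 and 0.106 for TGFB3 without day 90 replicate 2. At day 210, 0 of the 9 passed against either age, with a median log2 change of 0.21 against day 90 and −0.01 against day 30.

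Of 8 tested genes induced by glucocorticoids, apart from KLF9, 2 rose at day 210 against day 90 and their median log2 change was 1.0. DUSP1, a MAP kinase phosphatase, had 159, 179 and 128 CPM at day 210, against 49, 64.8 and 60.8 CPM at day 90 (1.42 ± 0.16, adjusted p = 0.0188). CDKN1A, the cell cycle inhibitor p21, also rose (1.60 ± 0.26, adjusted p = 0.0415), but its call was lost in 7 of 9 fits with a library left out, at an adjusted p of up to 0.144 without day 90 replicate 2. DUSP1 lost its call in 3 of 9, at up to 0.0758 without day 90 replicate 3.

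Against day 30, DUSP1 (1.24 ± 0.16, adjusted p = 0.00581), DDIT4 (1.19 ± 0.22, adjusted p = 0.0195) and CDKN1A (1.28 ± 0.26, adjusted p = 0.025) rose at day 210. DDIT4, an inhibitor of mTOR signalling, and CDKN1A kept these calls in 7 and 6 of 9 fits with a library left out, with highest adjusted p of 0.0671 and 0.085 without day 30 replicate 1. At day 90 against day 30, 0 of the 8 passed, with a median of −0.36, and ZBTB16 (−1.42 ± 0.43, adjusted p = 0.0837) and FKBP5 (−0.73 ± 0.24, adjusted p = 0.114) had the smallest p. Without day 30 replicate 3 it was 3 of 8, FKBP5, ZBTB16 and TSC22D3, all lower. As with KLF9, day 30 replicate 3 was the lowest library of its age in the sum of this list, 475 CPM against 825 and 693 CPM in the other day 30 libraries. The day 90 libraries had 467 to 504 CPM and the day 210 libraries 766 to 941 CPM. FKBP5 held the largest part of the day 30 sums, with 440, 312 and 220 CPM, on a model of 55362 bases that can hold intronic reads. TSC22D3 and ZBTB16 were also well below the others in day 30 replicate 3. DUSP1 (63.1, 74.5 and 59.9 CPM) and DDIT4 (60.2, 68.2 and 57.2 CPM) differed less, and CDKN1A and ERRFI1 were not lowest there.

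Immediate early genes, which cells switch on within minutes of a stimulus and which handling of tissue also raises, differed at day 210 as well. Of 16 tested, NR4A1 (1.73 ± 0.21, adjusted p = 0.0201), FOSB (3.41 ± 0.53, adjusted p = 0.04) and FOS (2.25 ± 0.39, adjusted p = 0.0479) rose at day 210 against day 90. FOS had 64.0, 94.3 and 40.6 CPM at day 210, against 15, 12.8 and 14 CPM at day 90. With a library left out NR4A1 kept its call in 6 of 9 fits, FOSB in 3 and FOS in 3, and without day 90 replicate 2 their adjusted p were 0.0957, 0.144 and 0.178.

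Against day 30, FOS (adjusted p = 0.0242), FOSB (adjusted p = 0.0255), NR4A1 (adjusted p = 0.0346) and ZFP36 (adjusted p = 0.0397) rose at day 210 and IER3 fell (adjusted p = 0.0186). With a library left out IER3 kept that call in 7 of 9 fits, FOS in 6, FOSB in 4, ZFP36 in 2 and NR4A1 in 1. The highest adjusted p were 0.0784 for FOS, 0.112 for NR4A1 and 0.129 for ZFP36 without day 30 replicate 1, 0.077 for FOSB without day 210 replicate 2, and 0.0574 for IER3 without day 30 replicate 2. At day 90 against day 30 EGR1 (−0.68 ± 0.15, adjusted p = 0.0342) and IER3 (−0.89 ± 0.20, adjusted p = 0.0371) fell, calls kept in 5 and 3 of 9 such fits, with highest adjusted p of 0.128 and 0.136 without day 90 replicate 1. The summed CPM of the list was 393 to 488 at day 30, 340 to 407 at day 90 and 511 to 629 at day 210. The day 210 libraries were thus highest for this list, as they were for KLF4, KLF6 and KLF13. The part of this in the values of the members was not tested.

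Clock genes were counted because KLF9 and KLF10 cycle with the clock in mouse tissues, and the hour of sampling is not in the labels. Of 13 tested, PER2 fell at day 90 against day 30 (−0.75 ± 0.16, adjusted p = 0.0276), a call kept in 4 of 9 fits with a library left out, with 0.0996 without day 90 replicate 1 as the highest adjusted p. None of the 13 passed at day 210 against either age. Against day 90, the log2 change at day 210 was positive for 13 of 13, where 49.96% of all loci had a positive change. The median of the list was 0.20, and against day 30 the change was positive for 7 of 13. The summed CPM of the list was 378 to 402 at day 30, 361 to 369 at day 90 and 401 to 438 at day 210. Whether the hour of sampling had a part in this was not tested.

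Cell type markers bear on the members because bulk spleen mixes cells. Red pulp macrophage markers, 5 of 6 matched, summed to 2428 to 3151 CPM at day 30, 2384 to 2822 at day 90 and 2435 to 3962 at day 210, and of them CD163 rose at day 210 against day 90 (1.34 ± 0.19, adjusted p = 0.0272). CD163 lost that call in 5 of 9 fits with a library left out, at up to 0.118 without day 90 replicate 3. Day 210 replicate 3, the lowest day 210 library for KLF4, was also the lowest of its age in the sums of macrophage, endothelial, smooth muscle, fibroblast and immediate early genes.

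B cell markers, 4 of 6 matched, summed to 219 to 305 CPM at day 30, 444 to 557 at day 90 and 213 to 313 at day 210, and CD79B, MS4A1 and PAX5 rose at day 90 against day 30. T cell markers, 6 of 7 matched, had 274 to 320, 369 to 440 and 401 to 564 CPM at days 30, 90 and 210. Erythroid markers, 7 of 7 matched and KLF1 among them, had 228 to 686, 17.8 to 49.2 and 13.5 to 27.4 CPM, and platelet markers, 5 of 5, had 142 to 168, 67.1 to 80.8 and 42.9 to 71.4 CPM. Thus B cell markers were highest at day 90, when KLF4 and KLF9 had their lowest means. Erythroid and platelet markers were highest at day 30, as KLF10 was. The same held for endothelial markers and for the fibroblast and matrix markers given below, so none of these lists stands out beside KLF10.

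Neutrophil markers, 4 of 6 matched, had 4.44 to 15.1, 0.434 to 2.69 and 3.83 to 6.15 CPM at days 30, 90 and 210. Smooth muscle markers, 4 of 5, had 1189 to 1820, 774 to 1032 and 659 to 1584 CPM, and fibroblast and matrix markers, 4 of 6, had 663 to 889, 275 to 431 and 245 to 435 CPM. Adipocyte markers, 3 of 4, stayed at 0.552 to 1.55 CPM in all libraries, and none of the matched markers of any list was at 0 in every library. The spleen label thus stands beside high macrophage and lymphocyte markers, and the part of any cell type in the values of the members was not tested.

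The loci most like a member over the 9 libraries were found for the 3 members with the smallest p for any difference, as the mean absolute difference of centred log2 CPM, among 9849 loci with 1 informative description. For KLF4, whose own mean absolute deviation from its mean was 0.51, they were the heat shock cochaperone DNAJ homolog subfamily B member 1 (0.17), SPARC-related modular calcium-binding protein 1 (0.19) and apolipoprotein D (0.20). The first had means of 67.3, 46.4 and 126 CPM at days 30, 90 and 210. Loci were picked for likeness over these same libraries, here and for KLF10 and KLF9 below. A shared order of ages thus follows from the choice and is no separate result.

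For KLF10, whose own deviation was 0.26, they were 14-3-3 protein eta (0.048), cytoplasmic dynein 1 heavy chain 1 (0.056) and SHC-transforming protein 1 (0.071), each highest at day 30. For KLF9, whose own deviation was 0.53, they were APCDD1 (0.17), thrombomodulin (0.18) and the small GTPase RHOB (0.19), each lowest at day 90. Thrombomodulin had means of 15.8, 8.13 and 15.5 CPM at days 30, 90 and 210, close to 13.5, 7.32 and 15.2 CPM for KLF9.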

How the data were processed

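RNA-seq of 9 spleen libraries was analysed from tables of all samples. The authors deposited read counts and FPKM per locus, and for circRNAs junction read counts and a signal scaled per library. Per the submitters' processing notes HISAT2 2.0, StringTie 1.3.0 and Bowtie 0.12.2 were used with the build mm8, a mouse build. All 9 members lie on the chromosome of the same pig gene in Sscrofa11.1, but 0 of 9 overlap its coordinates, so the build is not certain. Strand, counting tool and counting settings are not given in the sources used here. The labels also name adipose tissue and both poly(A) fractions.

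Descriptions gave symbols for 147 of 184 list genes. Members and gene lists were chosen with earlier results of these data known. Counts of the loci above the minimum of 1 FPKM went into edgeR 4.0.16 (R 4.3.3) with TMM factors of 0.937 to 1.07 and 1 mean per age, by the quasi-likelihood test, two-sided, with a threshold of 0.05 after Benjamini-Hochberg adjustment. The common coefficient of variation was 27.3%. The standard error is the log2 change over the square root of F. Alternatives used DESeq2 1.42.0, limma 3.58.1, other filters, a replicate block and 1 library left out. The test was checked on simulated counts. Each member was named. Genes of the lists that passed were named, up to 4 per comparison, and otherwise the 2 with the smallest p, of which some values are not printed. ZFP36, genes that passed only with a library left out, TSC22D3 and S1PR1, and the cell type markers named were chosen after their values were seen. Marker lists were summed in CPM in place of the planned FPKM. No library was a copy of another. The result of 1 list gene is not reported here.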

Additional observations from a re-analysis of the deposited data

How the results depend on the processing

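The number of members past the test at day 90 against day 30, 0 by edgeR, was 2 by DESeq2, 2 by limma on log2(FPKM + 1) and 2 on log2(FPKM + 0.1), each time KLF9 and KLF10, and 1 (KLF10) with only these ages fitted. At day 210 against day 90 it was 2 by each of these 3 tools, KLF4 and KLF9, against 0. At day 210 against day 30 it was 2 by DESeq2 and 1 (KLF4) on log2(FPKM + 1), against 0. For any difference it was 3 by DESeq2, 3 on log2(FPKM + 1) and 2 on log2(FPKM + 0.1), against 1. Over all loci at day 90 against day 30, 127 of 1720 calls on log2(FPKM + 1) and 891 of 2424 by DESeq2 were higher, against 396 of 1171 by edgeR. With each library left out the counts ran from 0 to 1 in each pair of ages and from 0 to 2 for any difference, where KLF9 joined KLF4 without day 30 replicate 3 and KLF10 passed in its place without day 210 replicate 1. KLF10 passed at day 90 against day 30 without day 210 replicate 2, and KLF4 at day 210 against day 30 without day 90 replicate 3.

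At day 90 against day 30 KLF13 was −0.10 on log2(FPKM + 1) and −0.12 on log2(FPKM + 0.1), and KLF2 was −0.14 and −0.15, where the median of all loci moved by −0.15 and −0.19. With a library left out KLF2 at day 90 against day 30 ran from −0.076 to 0.21, KLF10 at day 210 against day 90 from −0.089 to 0.18, KLF7 at day 210 against day 30 from −0.11 to 0.052 and KLF9 there from −0.11 to 0.43. With a replicate block 0 members passed for any difference, with an adjusted p of 0.0806 for KLF4, and 651 of all loci did, against 1471. Same-numbered libraries correlated at −0.069 to 0.099 in their deviations, and 1 of 9 libraries correlated best with its own number. This gave no sign that the numbers pair the libraries, but with 3 libraries per age it cannot exclude a pairing. The cause of each change was not tested. With 3 libraries per age, a p that misses the threshold does not show equal levels.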

Other observations

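Circular RNAs gave little signal at the members. Of 18908 circular RNAs in the authors' table, 6 lay within KLF12, 1 within KLF2 and 1 within KLF7, and the other 6 members had 0. The table lists the KLF2 one and 1 of those in KLF12 as ciRNA, a type it keeps apart from circRNA. The 6 within KLF12 had 18 junction reads in all, too few for a comparison of ages. These were 1, 2 and 1 in the day 30 libraries, 2 in each day 90 library, and 5, 0 and 3 in the day 210 libraries. The KLF12 circRNA with the most reads, 5 in all, joined 50455535 to 50541934 on chromosome 11 over 3 exons and was seen in day 90 replicate 1 and day 210 replicate 3. One of the 6 lay on the other strand and was listed as intergenic, and it held the 2 reads of day 90 replicate 3. KLF2 and KLF7 had 2 junction reads each, in day 90 replicate 1 and day 90 replicate 2.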
